A study of Homo sapiens with 2 samples.

Results

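The 34 genes described here encode the proteins of homologous recombination and of the Fanconi anaemia pathway, and were taken by symbol from a table of 20323 genes. All 34 were found and all were among the 12218 expressed genes of the table. Expressed means that, in the library where the gene had more reads, it reached 1 CPM (counts scaled to a library of 1e6) and 20 counts. RNA was from MDA-MB-231 cells, an established line from a triple-negative breast cancer, given either a negative-control siRNA or an siRNA against HNRNPF, an RNA-binding protein of G-rich sequences. Each group was 1 library, so nothing below was tested between cultures: higher and lower describe this pair of libraries, and the 95% intervals are exact Clopper-Pearson intervals that cover counting error only. The labels state no time, dose or siRNA sequence, and the same cell line served both groups.

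Homologous recombination repairs a broken chromosome by copying the intact sister. The MRE11 complex senses the break, nucleases trim its ends, BRCA1 with BARD1 and PALB2 brings BRCA2 to the single strand, and the strand then invades the sister with the help of the BCDX2 and CX3 complexes and of translocases. The Fanconi pathway opens crosslinked DNA for the same machinery: a core complex with the ligase FANCL and the conjugating enzyme UBE2T puts ubiquitin on FANCD2 and FANCI. Many of these genes are transcribed more in S phase, and loss of several of them predisposes to breast cancer.

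The libraries held 20654622 counts (control) and 20134572 counts (HNRNPF siRNA). HNRNPF itself had 6373 counts under the control siRNA and 2451 under the HNRNPF siRNA, 38.8% of control. The mesenchymal-type breast markers VIM, CD44, AXL, CAV1 and ZEB1 were all expressed, and their summed level was 5467 CPM under the control siRNA and 5341 under the HNRNPF siRNA. Of 5 luminal breast markers, GATA3, FOXA1 and KRT19 were expressed and the hormone receptors ESR1 and PGR were below the minimum; their summed level was 51.9 CPM under the control siRNA against 61.2 under the HNRNPF siRNA. None of 5 haematopoietic markers reached the minimum, with 3 of them at 0 in both libraries. Of the other lists, 1 of 4 endothelial and 2 of 5 fibroblast markers were expressed, at summed levels of 4.98 and 16.2 CPM in the control and 3.79 and 17.0 in the HNRNPF siRNA library.

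As a group the recombination and Fanconi genes stayed near their control level, while a few members lay lower, at 63.6% to 77.2% of control. Their summed level was 2207.3 CPM under the control siRNA and 2102.4 under the HNRNPF siRNA, 95.3% of control. In all, 21 members were lower and 13 higher, against 49.9% of all expressed genes lower and 50.1% higher, and the median log2 ratio was -0.05 against 0.00 for all expressed genes. At least 20% lower, that is at or below 80% of control, were 6 members, RBBP8, UBE2T, BRCA1, SLX4, RAD54B and RAD51B. The background share of 9.26% of expressed genes would give 3.1. At least 25% higher, the same fold in the other direction, were 2 members, RAD51D and FANCF, and the background share of 10.8% would give 3.7. At 1.5-fold there was 1 lower member, RAD51B (background 2.68%), and no higher one (background 3.40%).

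**Figure D1:**
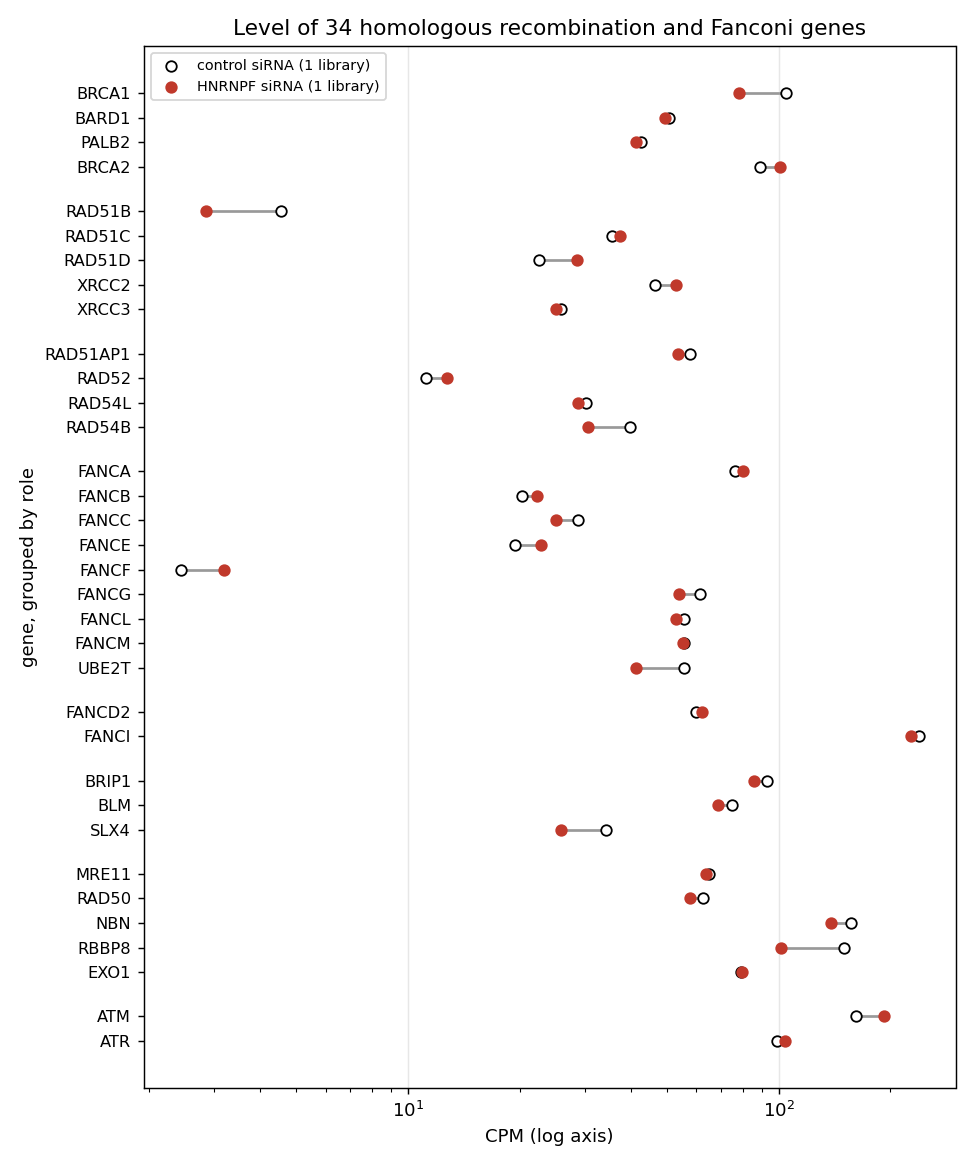
Level of each of the 34 genes in CPM on a log axis, grouped by role, with the control library as an open circle and the HNRNPF siRNA library as a filled one. Most pairs nearly coincide; the widest gaps to the left are those of RAD51B, RBBP8, UBE2T, BRCA1, SLX4 and RAD54B.

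Because the members were more abundant than most genes (median 55.5 CPM in the control against 34.7 for all expressed genes), small differences were better resolved by counting. The counting interval lay below 0 for 13 members, 38.2% of them, against 24.5% of expressed genes, and above 0 for 5 members, 14.7%, against 21.5%. At the stricter minimum of 5 CPM and 50 counts, which FANCF and RAD51B did not reach, it lay below 0 for 12 of 32 members (background 26.8%) and above 0 for 5 (background 22.6%). In that set 5 members were at least 20% lower (background 7.84%) and 1 was at least 25% higher (background 7.77%).

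**Figure D2:**
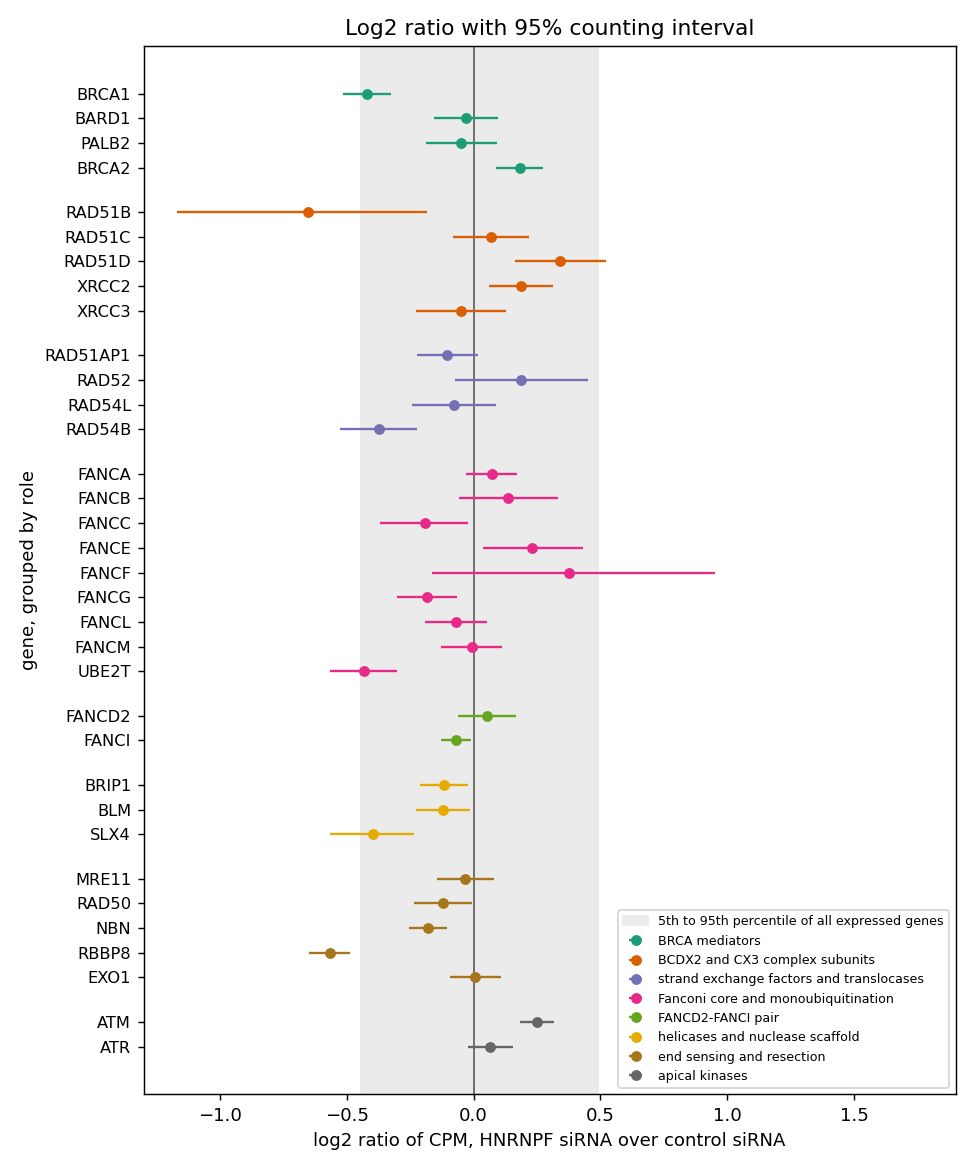
Log2 ratio of CPM, HNRNPF siRNA over control, for each gene with its 95% counting interval, coloured by role; the grey band spans the 5th to the 95th percentile of all expressed genes, -0.44 to 0.49. RAD51B and RBBP8 lie left of the band and no gene lies right of it.

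The end-sensing and resection genes held the most precisely measured of the lower members. RBBP8, which encodes CtIP, the cofactor that starts resection with the MRE11 complex, lies on GRCh38 chromosome 18 from 22798261 to 23026488, plus strand. RBBP8 had 3074 counts, 150 CPM, under the control siRNA and 2058 counts, 101 CPM, under the HNRNPF siRNA, 67.5% of control. Its log2 ratio was -0.57 (95% interval -0.65 to -0.49), at percentile 3.0 of all expressed genes. The partners of CtIP differed less. NBN, the subunit that recruits ATM, had 3197 and 2801 counts (log2 ratio -0.18, 95% interval -0.25 to -0.11). RAD50, the ATPase that bridges ends, was at -0.12 (95% interval -0.24 to -0.01), and the nuclease MRE11 at -0.03 (95% interval -0.14 to 0.08). EXO1, the long-range resection nuclease, had 1621 and 1617 counts and was level. By counting error alone, the interval of RBBP8 did not overlap that of any of the other 4 resection genes. Such intervals lay below 0 for 24.5% of all expressed genes, and how often other gene pairs lie apart was not counted. RAD50 shares its symbol and exons with a second row of the table, which had 254 and 241 counts (-0.06), so reads may have been split between them.

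BRCA1 and BARD1, which together form a ubiquitin ligase, were not lower to the same degree. BRCA1 (chromosome 17, 43044295 to 43170245, minus strand) had 2138 counts under the control siRNA and 1584 under the HNRNPF siRNA, 74.7% of control, a log2 ratio of -0.42 (95% interval -0.52 to -0.33). BARD1 had 1035 and 1005 counts and a log2 ratio of -0.03 (95% interval -0.16 to 0.10). PALB2, the bridge between BRCA1 and BRCA2, was at -0.05 with 871 and 836 counts. BRCA2, the mediator that acts on the trimmed single strand, was higher, with 1820 and 2049 counts (log2 ratio 0.18, 95% interval 0.09 to 0.27). So by counts, within the 4 mediators BRCA1 and BRCA2 lay on opposite sides of control, each with an interval that left out 0. The remaining pair lay near control. Of all expressed genes, 24.5% had an interval below 0 and 21.5% an interval above 0. By the authors' length-scaled FPKM with 0.1 added, BRCA1 was at -0.38 and BRCA2 at 0.05, the latter below its counting interval.

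The BCDX2 and CX3 complexes hold 5 related proteins, with RAD51B, RAD51C, RAD51D and XRCC2 in one and RAD51C with XRCC3 in the other, and the members of the first differed in direction. RAD51B (chromosome 14, 67819779 to 68730218, plus strand) was lower, with 93 and 58 counts and a log2 ratio of -0.65 (95% interval -1.17 to -0.18). RAD51D (chromosome 17, 35092208 to 35121522, minus strand) was higher, with 461 and 580 counts and a log2 ratio of 0.34 (95% interval 0.16 to 0.52). XRCC2 was also higher, with 950 and 1073 counts (0.19, 95% interval 0.06 to 0.31). RAD51C was at 0.07 with 727 and 757 counts, and XRCC3 at -0.05 with 530 and 508, both with intervals that held 0. RAD51D overlaps a readthrough gene on its strand that the table lists at 0 counts in both libraries. XRCC3 overlaps KLC1 on the other strand, and it and XRCC2 have counts that are not whole, which makes both values less certain.

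Of the strand exchange factors and translocases, RAD54B was the lowest. RAD54B, a DNA translocase, had 811 and 621 counts (log2 ratio -0.37, 95% interval -0.53 to -0.22), whereas its paralog RAD54L, a translocase of the same family, had 620 and 583 (-0.08, 95% interval -0.24 to 0.09). Once a GC and length trend over expressed genes was removed, RAD54B was at -0.27 and no longer at least 20% lower. The counts of both are not whole, and RAD54B shares exons with FSBP. RAD51AP1, which promotes strand pairing, was at -0.10 with 1177 and 1087 counts, and RAD52, a single-strand annealing protein, at 0.19 with 229 and 259. Neither interval left out 0.

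In the Fanconi core UBE2T stood lowest. UBE2T, the E2 enzyme of the pathway (chromosome 1, 202331657 to 202341980, minus strand), had 1138 counts under the control siRNA and 836 under the HNRNPF siRNA, 74.1% of control, with a log2 ratio of -0.43 (95% interval -0.56 to -0.30). FANCL, the E3 ligase that works with it, had 1136 and 1075 counts (-0.07, 95% interval -0.19 to 0.05). Their substrates were near control: FANCD2 had 1226 and 1261 counts (0.05) and FANCI had 4876 and 4610 (-0.07, 95% interval -0.13 to -0.01). By counting error alone, the interval of the E2 enzyme lay below those of its ligase and of both substrates. Intervals below 0 were found for 24.5% of all expressed genes, and how often other gene pairs lie apart was not counted.

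Subunits that hold the core complex together lay on both sides of control. FANCG, which binds FANCA, was lower at -0.18 (95% interval -0.30 to -0.06), and FANCC was lower at -0.19 (95% interval -0.37 to -0.02). FANCE, which links the core to FANCD2, was higher, with 397 and 463 counts (0.23, 95% interval 0.04 to 0.43). FANCA (0.07), FANCB (0.14), the translocase FANCM (-0.01) and FANCF (0.38) had intervals that held 0. FANCF is an intronless gene and, by counts, the least abundant member of the control library. It had 50 and 65 counts (interval -0.16 to 0.95), so its place among the higher genes is not resolved by counting. FANCA, FANCG, FANCL and FANCI have counts that are not whole. FANCA, FANCF, FANCL, FANCD2 and FANCI each overlap a gene on the other strand, as do RAD54L and MRE11. Whether reads were assigned by strand is not known for these either.

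All 3 helicase and scaffold genes were lower, by unequal amounts, where 49.9% of all expressed genes were lower. SLX4, the scaffold for the structure-specific nucleases that unhook crosslinks, lies on chromosome 16 from 3581181 to 3611598, minus strand. SLX4 had 700 counts under the control siRNA and 527 under the HNRNPF siRNA, 75.9% of control, with a log2 ratio of -0.40 (95% interval -0.56 to -0.23). BRIP1, a helicase that binds BRCA1, had 1900 and 1740 counts (-0.12, 95% interval -0.21 to -0.02). BLM, the helicase that dissolves double Holliday junctions, had 1528 and 1395 (-0.12, 95% interval -0.23 to -0.01).

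The apical kinases, only 2 genes, were the only role group with no member lower. Of all expressed genes, 50.1% were higher. ATM, which answers to double-strand breaks (chromosome 11, 108222484 to 108369102, plus strand), had 3295 counts under the control siRNA and 3892 under the HNRNPF siRNA, 119% of control, with a log2 ratio of 0.25 (95% interval 0.18 to 0.32). ATR, which answers to single-stranded DNA, had 2028 and 2107 counts (0.07, 95% interval -0.02 to 0.15). The intervals of these kinases, which cover counting error only, did not overlap. An interval above 0 was found for 21.5% of all expressed genes, and how often other gene pairs lie apart was not counted. ATM overlaps NPAT and C11orf65 on the other strand, and no source used here says whether reads were assigned by strand.

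Per length, by the authors' FPKM (counts per kilobase of transcript, scaled to library size), FANCI was the most abundant member of the control library at 78.6, followed by UBE2T at 62.9, RBBP8 at 51.0, NBN at 35.9, RAD51AP1 at 34.3 and RAD51C at 34.3. In the HNRNPF siRNA library FANCI was at 74.0, UBE2T at 47.5, RAD51C at 39.1, RBBP8 at 35.1, RAD51AP1 at 33.6 and NBN at 31.8. RAD51C thus passed RBBP8, NBN and RAD51AP1 in that order. The lowest were FANCF, at 0.74 and 0.98 FPKM, and RAD51B, at 3.91 and 1.67.

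FPKM divides each count by a transcript length that the authors' quantification set in each library, so the count and the FPKM of a gene together give the mean length it implied. For 30 of the 34 members that length differed by less than 1.1-fold between the libraries. It was at least 1.1-fold longer in the HNRNPF siRNA library for 4 members, RAD51B, BRCA2, RAD52 and FANCC, where the background share of 6.52% would give 2.2, and for none was it 1.1-fold shorter (background 7.46%). RAD51B went from 1152 to 1725 bases, so that its log2 ratio by FPKM with 0.1 added was -1.18 against -0.65 by counts. With 93 and 58 counts, the division of its reads between transcripts rests on few of them. BRCA2 went from 9131 to 10166 bases, against an annotated 11986, and its log2 ratio by FPKM was 0.05 against 0.18 by counts. RAD52 went from 1675 to 1856 bases and FANCC from 2858 to 3158. RBBP8, UBE2T, SLX4 and BRCA1, lower in level, kept their implied length within 1.01-fold.

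**Figure D3:**
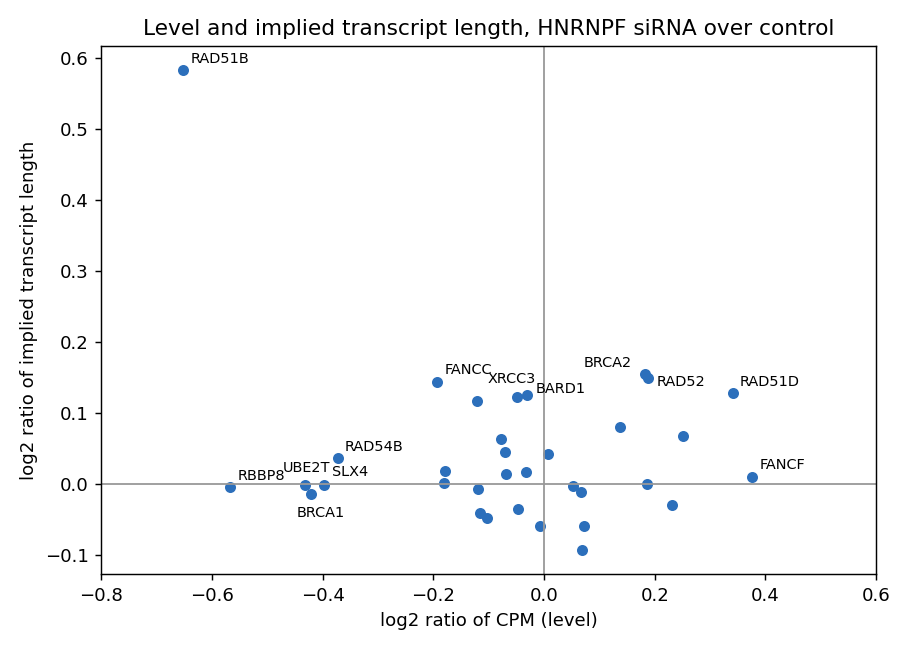
Log2 ratio of implied transcript length against log2 ratio of CPM, HNRNPF siRNA over control, 1 point per gene. RAD51B stands alone at the upper left, and RBBP8, UBE2T, BRCA1 and SLX4 lie on the line of unchanged length.

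The heptamer GGAAGAA was searched in the members on the sense strand because its carriers were lower in these libraries: at 5 CPM and 50 counts, 381 of 2159 genes with it in the 3' untranslated region (UTR) were at least 20% lower, against 447 of 8406 without it. Carriers also had longer 3' UTRs, with a median of 2876 bases against 935.5, and the part of that length in the difference was not tested. The sequences are shown because a match can be set beside each gene's value. In the principal transcript's 3' UTR it was found in 3 of the 32 members at 5 CPM and 50 counts, BRCA1, RAD51C and RAD50, against 20.4% of all genes at that level, a share that would give 6.5. Each is given below from GENCODE release 29 transcripts, GRCh38, 5′ to 3′ on the strand of the gene, with the heptamer in capitals.
BRCA1 3' UTR (chr17:43044454-43044483, minus strand): tgcttgctgaaGGAAGAAaaagtgtttttc
RAD51C 3' UTR (chr17:58734550-58734579, plus strand): ataaaatcttaGGAAGAAacatatcatatt
RAD50 3' UTR (chr5:132643254-132643283, plus strand): caaccagacctGGAAGAAcaggcctctcca

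These 3 carriers had log2 ratios of -0.42 (BRCA1), 0.07 (RAD51C) and -0.12 (RAD50), a median of -0.12, and the other 29 members a median of -0.05. Over all genes at that level, carriers had a median of -0.08 and the others 0.01. UBE2T, RBBP8, SLX4 and RAD54B, the other members at least 20% lower at that level, had no match in the 3' UTR. That region is short in UBE2T (178 bases), RAD54B (210 bases) and RBBP8 (248 bases), and has 1161 bases in SLX4. With the 3' UTR of any coding transcript searched, 5 members carried it, against 25.6% of all genes. The order of the medians in the members then turned, at -0.03 for these 5 and -0.05 for the other 27, while over all genes it was -0.07 and 0.01. The shorter GAAGAA, in the 3' UTR of the principal transcript, gave -0.01 for 8 members with it and -0.06 for the 24 without.

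In a search of the whole principal transcript, added after the values were seen, RBBP8, SLX4 and BRCA1 had several matches in the coding region. RBBP8 had 3, SLX4 had 5 and BRCA1 had 6, while UBE2T had none anywhere. PALB2, BRIP1, BLM, RAD54B and ATM also had 3 each in the coding region. Their log2 ratios were -0.05, -0.12, -0.12, -0.37 and 0.25 in that order. The RBBP8 matches, the last of which overlap as printed, are shown because this gene had the lowest ratio at 5 CPM and 50 counts.
RBBP8 coding (chr18:22975164-22975193, plus strand): aatactctacaGGAAGAAaataaaaagctt
RBBP8 coding (chr18:22993156-22993185, plus strand): aacatccaaaaGGAAGAAaactgaggaaga
RBBP8 coding (chr18:22993169-22993198, plus strand): aagaaaactgaGGAAGAAagtgaacatgaa

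With 3 or more matches in the transcript were 9 of 32 members, of which 8 were lower and 4 at least 20% lower, with a median of -0.12; ATM, with 3, was higher. Of all genes at that level, 10.3% had 3 or more, and of these 1095 genes 751 were lower and 160 at least 20% lower. The 12 members with 1 or 2 matches had a median of 0.06 and the 11 with none a median of -0.07, so the values did not follow the number of matches in order. Among all genes at that level, medians were 0.04 with none, -0.04 with 1 or 2 and -0.09 with 3 or more. Genes with more matches also had longer transcripts, with a median of 6048 bases for the 9 members and 3018 for the 11. After a correction for GC content and length, fitted over expressed genes, RBBP8 was at -0.48, SLX4 at -0.45, BRCA1 at -0.37 and RAD54B at -0.27.

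Promoters from RefSeq (GRCh38.p14, 250 bases before to 50 after each start) were at hand for 31 members and were searched on both strands for motifs of cell-cycle genes. None of the strings searched contains another. The E2F-type letters TTTCCCGC or TTTGGCGC were in 3 promoters, those of FANCC, FANCD2 and XRCC2, and in 2.75% of the promoters of all 27305 genes. CCAAT was in 13, against 39.7% of all, and TTTGAA, the letters of the cell-cycle homology region, in 4, against 18.2%. FANCC, FANCD2 and XRCC2 had log2 ratios of -0.19, 0.05 and 0.19, one lower and the others higher.

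Other repair genes were described by lists fixed with earlier results of these data known. The shares to set beside each list are those of all expressed genes. Of these, 49.9% were lower, 9.26% at least 20% lower and 10.8% at least 25% higher. Among 50 expressed further genes of recombination and crosslink repair, 28 were lower and 22 higher (median -0.03), with 3 at least 20% lower and 4 at least 25% higher. RECQL, a helicase with counts that are not whole, was at -0.61. SWI5, which acts in strand exchange with SFR1, was at 0.63 and FIGNL1, an ATPase, at 0.46. Genes of damage signalling were lower in 22 of 30 (median -0.13), 6 of them by at least 20%, and 1 was at least 25% higher. The lowest were SHLD2 (-0.90), a shieldin subunit that limits resection and whose counts are not whole, MDC1 (-0.57), the reader of phosphorylated H2AX, and BABAM2 (-0.42), of the BRCA1-A complex.

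The remaining repair lists had few genes past these bounds. End joining had 7 of 13 lower (median -0.04), with LIG4, the ligase, at -0.24, PAXX at 0.25 and the polymerase POLL at 0.35. Mismatch repair had 4 of 6 lower (median -0.06), with MSH3 at -0.30 and PMS2 at -0.12. Nucleotide excision repair had 6 of 18 lower (median 0.03), with the damage sensors XPC at 0.54 and DDB2 at -0.39 and with CETN2 at -0.30. Base excision and single-strand break repair had 15 of 22 lower (median -0.04), with the glycosylases TDG at -0.76 and NTHL1 at 0.27 and the phosphodiesterase TDP1 at -0.36.

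**Figure D4:**
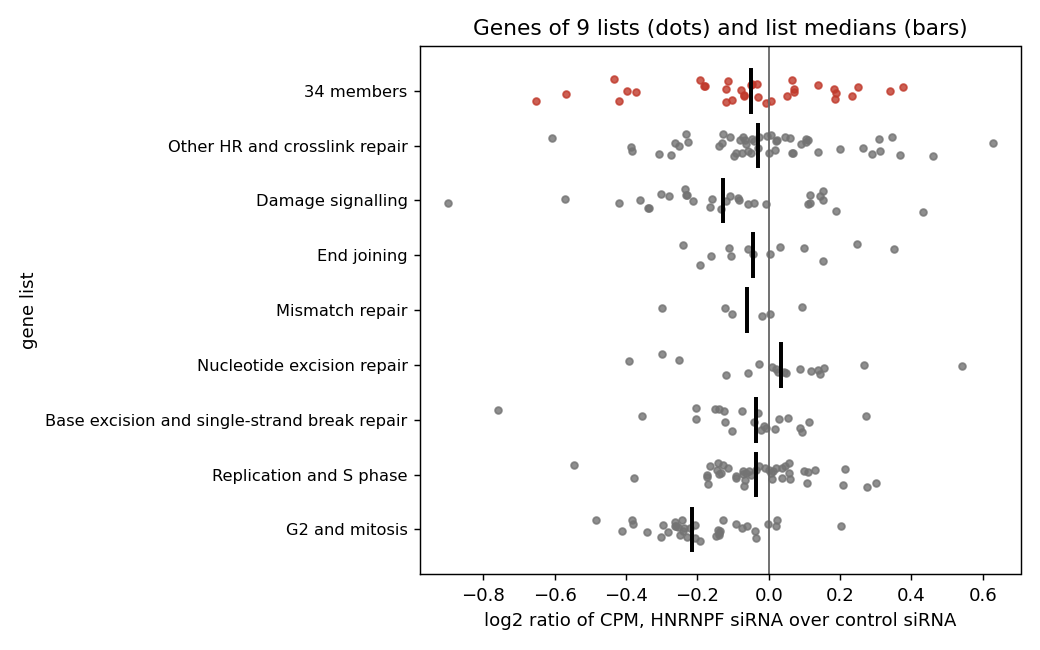
Log2 ratio of CPM for each expressed gene of the 34 members and of 8 other lists, with a bar at each median. The members (median -0.05) are centred near the lists of replication (-0.04), end joining (-0.04), base excision (-0.04), mismatch repair (-0.06) and other recombination (-0.03). The damage signalling (-0.13) and mitotic (-0.21) lists are centred further left, and nucleotide excision repair (0.03) further right.

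Since recombination genes follow the cell cycle, their values stand beside those of cycling genes. Replication and S phase genes were lower in 24 of 43 (median -0.04), with 2 at least 20% lower and none at least 25% higher. The background shares were 49.9% lower, 9.26% at least 20% lower and 10.8% at least 25% higher. DSCC1 was at -0.55, CCNE2, whose counts are not whole, at -0.38 and the licensing factor CDT1 at 0.30. Genes of G2 and mitosis were lower in 33 of 36 (median -0.21), 5 of them by at least 20%, led by the kinesin KIF20A (-0.48), the spindle protein DLGAP5 (-0.41) and MKI67 (-0.38). Their summed level was 10090 CPM under the control siRNA and 8782 under the HNRNPF siRNA. In bulk RNA, fewer cells in a phase and less RNA per cell cannot be told apart, and the part of either in the lower values of RBBP8, UBE2T, BRCA1, SLX4 and RAD54B was not tested.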

How the data were processed

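Polyadenylated RNA of 2 libraries, 1 per siRNA, was analysed from 1 deposited table. Tools listed in the submitters' processing notes were fastp 0.18.0, HISAT2, RSEM and StringTie 1.3.1, with GRCh38 as build and no roles or annotation release. Per the file headers, the authors deposited estimated counts (not scaled; rounded here) and FPKM for each library, and the authors' log2 fold change, p-value and false discovery rate, which were not used. Another 2 per-library columns were not used. The library named si848 was read as the HNRNPF siRNA one, since the table's name sets the control against that siRNA.

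Library sizes were TMM-scaled (edgeR 4.0.16, R 4.3.3) and log2 ratios of CPM took a prior count of 2. Intervals (scipy 1.17.1) were scaled likewise. They and all counts by fold cover counting error only, since each group is 1 library. Reads are not independent molecules, so the intervals may be too narrow even for that error. On simulated data with counting error alone, 95.5% of intervals covered the true ratio, and 4.27% of unchanged expressed genes lay at or past 80% or 125% of control, the bounds used to call genes lower or higher. Implied length was count divided by FPKM and library total, for genes at 0.5 FPKM or more. Coordinates, lengths and UTRs came from GENCODE release 29. Where rows shared a symbol, the owner in the Ensembl name table kept it.

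The members, role groups, lists and heptamer were chosen with earlier results of these data known. Named were all members, HNRNPF and, of each list, the 3 genes at 5 CPM and 50 counts with the largest absolute log2 ratio; some genes of the lists are not reported here and were left out of their counts. Alternatives changed library scaling, prior count, expression minimum, unit, the trend of GC content and length, and the transcripts searched. DESeq2 1.42.0 gave the size factors for one of them.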

Additional observations from a re-analysis of the deposited data

How the results depend on the processing

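Under 8 alternatives that give single-gene values, 265 of 270 member values stayed inside their counting interval and no member at least 20% lower or 25% higher changed sign. That tally overstates stability. A changed expression minimum cannot alter a single-gene value, and a changed prior count hardly alters one with many counts, so many of the values inside were bound to be there. The 5 outside were RAD51B and BRCA2 by the authors' FPKM (-1.18 and 0.05) and RBBP8, NBN and FANCI with the GC and length trend removed (-0.48, -0.08 and -0.01). With that trend removed the members' median was 0.01 and 17 of 34 were lower. Sign changes occurred in 5 members within 0.05 of control on the log2 scale, FANCM, EXO1, PALB2, BARD1 and MRE11. The number at least 25% higher was 1 in place of 2 with the stricter minimum, with the authors' FPKM and without shared symbols and counts that are not whole. The number at least 20% lower was 5 in place of 6 with the GC and length trend removed and without shared symbols and counts that are not whole, where RAD54B was the gene lost, and with the stricter minimum, where RAD51B was. The number at least 1.5-fold lower was 0 in place of 1 with the stricter minimum. Members with GGAAGAA numbered 5 in place of 3 when any coding transcript's 3' UTR counted, and 21 in the whole transcript, which was added after seeing the data. In that last search, at the stricter minimum, 34.4% of members had no match, against 47.4% of all genes, with no matching for transcript length. Without shared symbols and counts that are not whole, the median of the BCDX2 and CX3 subunits was -0.29 in place of 0.07 and that of the strand exchange factors and translocases 0.04 in place of -0.09, both over fewer genes. No paired analysis was possible because each group is 1 library, which also leaves no replicate to leave out. The intervals are widest for FANCF and RAD51B, where depth limits what can be resolved.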
